A study of Mus musculus with 8 samples.

Results

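Cytochrome P450 enzymes of families 1, 2 and 3 are the heme-containing monooxygenases through which the liver oxidises drugs, plant compounds, steroids, fatty acids and bile acids. The 49 genes whose symbol names a P450 of these families, pseudogenes left out, were taken from the 19642 genes of a liver RNA-seq count table, and 42 of them had a mean of at least 0.5 CPM (counts scaled to a library of 1000000) over the 8 livers. Of the 49, 41 passed the expression filter and were tested, all of them among those 42, and Cyp2b9 reached 0.5 CPM without passing the filter. The lowest genes above that limit were Cyp2c55 at a mean of 0.605 CPM and Cyp2b9 at 0.656 CPM, and the highest below it were Cyp2s1 at 0.473 CPM and Cyp1a1 at 0.378 CPM. The 7 below the limit were Cyp1a1, Cyp2d34, Cyp2g1, Cyp2j8, Cyp2s1, Cyp3a41b and Cyp3a57, and none of them exceeded 0.929 CPM in any liver. All 49 are annotated as protein coding.

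The livers came from 4 WT mice and 4 liver-specific NgBR knockout mice (N-LKO), which carried loxP-flanked alleles of NgBR (gene symbol Nus1) and an albumin-Cre transgene. Albumin-Cre acts in hepatocytes, and the study names endothelial, stellate and Kupffer cells as examples of liver cells that express NgBR. All mouse strains of the study were of the C57BL6 background, the study used male mice, and both groups ate a chow diet, given as 8 weeks in the sample titles and as 16 weeks in another label. Which alleles or transgene the WT mice carried is not given in the sources used here. Total counts per liver ran from 14688404 to 18585412. Nus1 stood at 82.0, 90.4, 90.5 and 89.7 CPM in the WT livers and at 33.3, 36.2, 38.7 and 38.7 CPM in the N-LKO livers (log2 fold change -1.26, adjusted p = 3.06e-05). The labels of all 8 livers thus matched the targeted gene.

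Family 1 enzymes are known as targets of the aryl hydrocarbon receptor (AHR). Many family 2 and 3 enzymes respond to the drug-sensing nuclear receptors CAR and PXR, depend on HNF4A, and differ between the sexes under control of growth hormone. Most hepatic P450s are made by hepatocytes, many of them more strongly around the central vein, and they need heme and electrons from the reductase Por. Cyp1b1 differs from these in being known mainly from stromal and other extrahepatic cells.

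Of the 41 tested P450 genes, 1 was called at an adjusted p under 0.05, against 1.04% of the 14214 genes tested. This was Cyp1b1, higher in N-LKO, a direction in which 0.823% of all tested genes were called. No member was called lower in N-LKO, while 14 of 41 members (34.1%) had an unadjusted p under 0.05, against 12.8% of all tested genes. Of these 14, 12 were higher in N-LKO, where the share over all genes was 6.87%, and 2 were lower, where it was 5.90%. The genotypes did not overlap for 2 of the 41, both higher in N-LKO, against 4.20% of all tested genes, and for no member in the lower direction, against 3.32%. The median log2 fold change was 0.11 over the 41 members and -0.003 over all tested genes. Members are not independent of each other, since neighbouring P450 genes share sequence and hence reads.

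**Figure D1:**
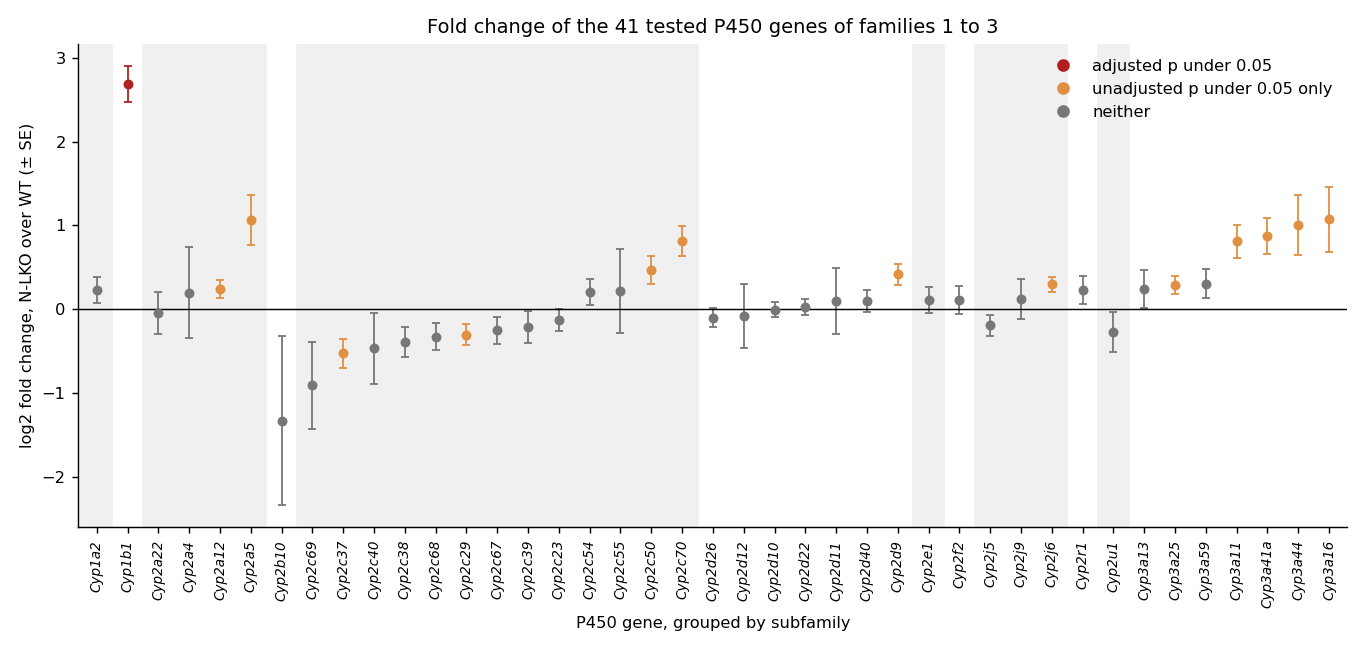
Log2 fold change of N-LKO over WT (points, with SE bars) for the 41 tested P450 genes, grouped by subfamily along the x axis with shading for alternate subfamilies. Cyp1b1, in red, stands at 2.69, while the other 40 lie between -1.33 and 1.07 and the Cyp3a genes at the right all lie above 0.

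Cyp1b1, which hydroxylates oestrogens and polycyclic hydrocarbons, is the gene at 79701537 to 79715062 on the minus strand of chromosome 17 (ENSMUSG00000024087.4; coordinates as in the count table, which match GRCm38). Its level was 0.908, 0.75, 0.761 and 0.717 CPM in the WT livers and 5.33, 4.36, 6.57 and 4.14 CPM in the N-LKO livers. All 4 N-LKO livers lay far above all 4 WT livers, and the spread within each genotype was at most 1.59-fold. Cyp1b1 rose by 2.69 on the log2 scale (SE 0.215, adjusted p = 0.000268), that is 6.44-fold. An exact permutation test of the log2 CPM values gave a two-sided p of 0.0286, the smallest that 4 against 4 livers allow. Any gene whose genotypes do not overlap gives this value, so it adds no separate support. The gene was scarce, with 12 to 17 counts in a WT liver and 61 to 99 in an N-LKO liver. None of its 75-base stretches occurred in another gene's transcripts and no annotated gene overlapped it.

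The promoter of Cyp1b1 is shown because it is the promoter of the called gene and because the AHR core motif GCGTG lies in it. The run holds the 250 bases before the RefSeq start on the minus strand (GRCm38.p6, chr17:79715062-79715311), 5′ to 3′, with the motif, here on the opposite strand, in capitals.
Cyp1b1: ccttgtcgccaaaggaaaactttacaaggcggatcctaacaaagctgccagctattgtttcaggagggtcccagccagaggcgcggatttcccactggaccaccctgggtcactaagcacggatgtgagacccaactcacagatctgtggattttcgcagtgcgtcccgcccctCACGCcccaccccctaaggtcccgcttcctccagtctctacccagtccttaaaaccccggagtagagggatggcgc
GCGTG, searched on both strands, occurred in 5 of the 42 members for which RefSeq gave a promoter (11.9%), and in 30.9% of 27025 promoters of the same length. The 5 members were Cyp1a1, Cyp1b1, Cyp2b10, Cyp2c68 and Cyp2j9. A match is a run of letters and not a measured binding site. Members that share sequence are not separate observations in such a count.

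The other family 1 genes gave no call. Cyp1a2, the constitutive hepatic member, which oxidises caffeine, stood at 135, 194, 190 and 214 CPM in WT and at 245, 161, 218 and 233 CPM in N-LKO (log2 fold change 0.23, SE 0.157, adjusted p = 0.598). Its genotypes overlapped widely. Cyp1a1, the most inducible AHR target, was too low to be tested, at 0.19 to 0.717 CPM in WT and 0.264 to 0.475 CPM in N-LKO. Ahr itself gave a log2 fold change of 0.14 (adjusted p = 0.846), with 55.9 to 77.3 CPM in WT and 53.1 to 116 CPM in N-LKO, where the highest value was that of N-LKO 4 and the others lay within the WT range or just below it. Of the other AHR targets listed, Nqo1, Ugt1a6a and Tiparp were tested and none was called, with log2 fold changes from -0.08 to 0.14.

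Markers of other liver cells moved with genotype beside Cyp1b1. In a list of 11 fibroblast and stellate cell markers, all tested, 4 (36.4%) were called higher in N-LKO and none lower. Over all tested genes, 0.823% were called higher. The collagen gene Col1a1 stood at 2.60 to 4.64 CPM in WT and 6.67 to 15.7 CPM in N-LKO (log2 fold change 1.45, adjusted p = 0.0444). Dpt, an extracellular matrix protein, stood at 2.38 to 3.48 and 10.9 to 17.6 CPM (2.23, adjusted p = 0.00032). The proteoglycan Lum (1.46, adjusted p = 0.0026) and the fibroblast receptor Pdgfra (1.40, adjusted p = 0.00214) were the other two. The summed level of the list ran from 203 to 291 CPM in WT and from 305 to 433 CPM in N-LKO, and no marker of the list was at 0. Dcn, the highest marker of the list in every liver, weighs most in this sum and was not called (0.43, adjusted p = 0.185). For the stellate cell gene Lrat the log2 fold change was -0.15 (adjusted p = 0.816).

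In a list of 8 bile duct cell markers, 5 were tested and 2, Epcam (log2 fold change 1.55, adjusted p = 0.0293) and Spp1 (1.51, adjusted p = 0.0353), rose. That is 40.0% of those tested, against 0.823% of all tested genes called higher. The summed list ran from 36.1 to 62.5 CPM in WT and from 73.3 CPM upwards in N-LKO. None of the 9 tested hepatocyte markers, 9 macrophage markers or 8 sinusoidal endothelial markers was called. N-LKO 3, the liver with the most Cyp1b1, also had the highest Col1a1, Dpt, Lum, Pdgfra, Epcam and Spp1, whereas N-LKO 1, second in Cyp1b1, had the lowest fibroblast and bile duct sums of the 4 N-LKO livers. The part of these cells in the Cyp1b1 difference was not tested. In bulk liver, more cells of a type and more RNA per cell cannot be told apart.

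**Figure D2:**
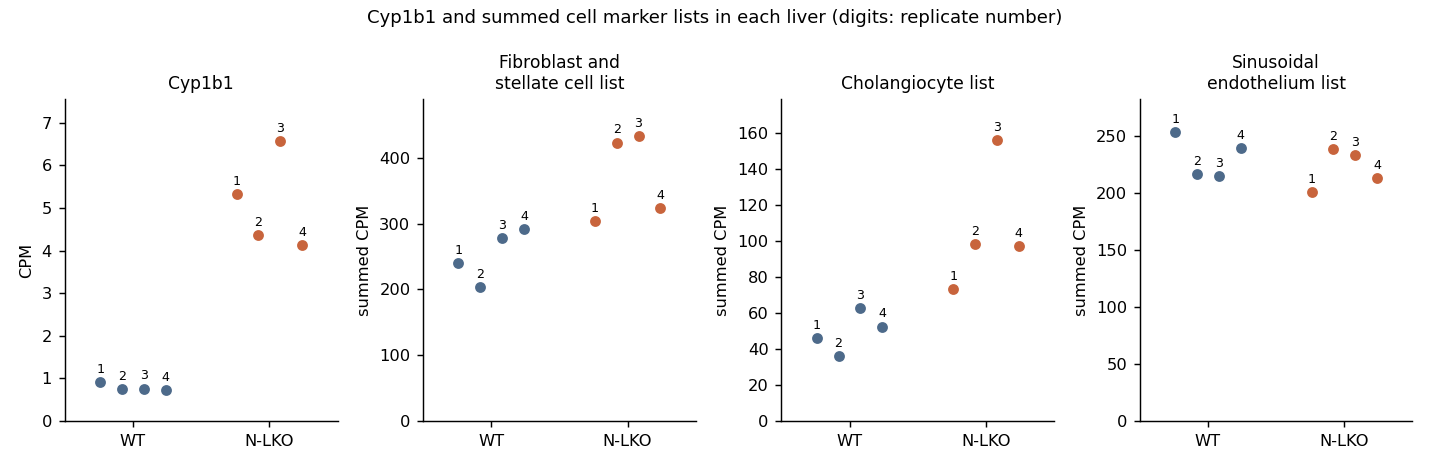
Cyp1b1 in CPM and the summed CPM of 3 marker lists in each liver (points; blue WT, orange N-LKO; digits give the replicate number). Cyp1b1, the fibroblast and stellate cell list and the bile duct (cholangiocyte) list lie higher in every N-LKO liver than in any WT liver, while the sinusoidal endothelium list overlaps.

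In family 3 the differences were smaller but all pointed one way. Several of its genes share sequence and hence reads, so their signs are not separate observations. Of the 75-base stretches, 11% for Cyp3a44, 12.3% for Cyp3a25 and 13.2% for Cyp3a59 occur in other genes. All 7 tested Cyp3a genes, the family of broad drug and steroid hydroxylases, had a positive log2 fold change, from 0.24 to 1.07, with a median of 0.81, and 5 had an unadjusted p under 0.05, but none was called. Cyp3a11, the principal PXR target and the most abundant of them, stood at 1383, 1881, 2596 and 2107 CPM in WT and at 4134, 2523, 3897 and 3381 CPM in N-LKO. N-LKO 1, 3 and 4 lay above every WT liver and N-LKO 2 lay just below WT 3. The log2 fold change was 0.81 (SE 0.201, adjusted p = 0.106), or 1.75-fold. Cyp3a41a, a steroid hydroxylase known as female-biased, stood at 4.86, 7.38, 9.07 and 8.17 CPM in WT and at 9.92, 12.3, 18.4 and 13.3 CPM in N-LKO. Its genotypes did not overlap, and the log2 fold change was 0.87 (SE 0.216, adjusted p = 0.105). Of its 75-base stretches 95.3% also occur in other genes, nearly all in its copy Cyp3a41b, so the split between these copies is uncertain. The sum of the 2 copies ran from 4.86 to 9.13 CPM in WT and from 9.98 to 18.6 CPM in N-LKO.

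Cyp3a25, an abundant hepatic member, stood at 528, 528, 719 and 570 CPM in WT and at 735, 659, 745 and 716 CPM in N-LKO (log2 fold change 0.28, SE 0.11, adjusted p = 0.304). WT 3 was the one WT liver within the N-LKO range. Cyp3a44 stood at 0.374, 0.563, 0.951 and 0.607 CPM against 1.30, 1.65, 1.33 and 0.679 CPM (1.00, adjusted p = 0.256). Cyp3a16, abundant before birth and low in adult males, stood at 0.481, 0.938, 0.697 and 0.331 CPM against 0.737, 1.06, 1.86 and 1.49 CPM (1.07, adjusted p = 0.266). Both rested on few counts and overlapped between genotypes. Cyp3a13, whose start lies 7452 kb or more from those of the other Cyp3a genes on chromosome 5, and Cyp3a59 gave log2 fold changes of 0.24 and 0.30. The untested Cyp3a57 stood at 0.166 to 0.267 CPM in WT and at 0.170 to 0.730 CPM in N-LKO. The summed Cyp3a level was 2437 to 3596 CPM in WT and 3553 to 5273 CPM in N-LKO, a ratio of means of 1.58, and WT 3 and N-LKO 2 alone overlapped. These 2 livers also stood apart in a list of 6 red blood cell genes, which summed to 553 CPM in WT 3 and 296 CPM in N-LKO 2 against 58.1 to 125 CPM in the other 6 livers. The part of blood content in the P450 values was not tested.

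WT 1 had the lowest Cyp3a11 and was the lowest of the 8 livers for 15 of the 42 members. Without it, the log2 fold change of Cyp3a11 was 0.67, and over the removals of each single liver it ran from 0.67 to 0.96 with an adjusted p from 0.0503 to 0.264. The call for Cyp3a depended on the test. DESeq2 called 4 members, Cyp1b1, Cyp2c70 (adjusted p = 0.00139), Cyp3a11 (0.00251) and Cyp3a41a (0.00791), where it called 2.43% of all genes with an adjusted p. Nr1i2 (PXR) and Nr1i3 (CAR), the receptors behind drug induction of these genes, gave log2 fold changes of 0.08 (adjusted p = 0.675) and -0.24 (0.504).

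The promoters of Cyp3a11 and Cyp3a41a are shown as those of the Cyp3a genes with the smallest p. Each holds the 250 bases before the RefSeq start on the minus strand of chromosome 5 (GRCm38.p6, chr5:145879855-145880104 and chr5:145720137-145720386), and the capitals mark CAAAGTCC, the core of a sequence that HNF4A is known to bind.
Cyp3a11: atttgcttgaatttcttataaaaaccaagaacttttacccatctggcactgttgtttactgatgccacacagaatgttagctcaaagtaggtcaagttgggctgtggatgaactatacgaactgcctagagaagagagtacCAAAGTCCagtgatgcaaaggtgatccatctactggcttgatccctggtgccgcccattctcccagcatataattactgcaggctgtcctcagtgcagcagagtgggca
Cyp3a41a: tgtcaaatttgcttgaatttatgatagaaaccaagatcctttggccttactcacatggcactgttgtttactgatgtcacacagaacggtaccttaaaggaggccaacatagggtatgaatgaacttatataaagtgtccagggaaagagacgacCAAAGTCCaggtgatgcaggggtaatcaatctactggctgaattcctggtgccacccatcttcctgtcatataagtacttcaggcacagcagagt
In an alignment of the pair, 71.7% of positions were equal. CAAAGTCC, searched on both strands after these sequences had been seen, occurred in 11 of 42 members (26.2%) and in 1.38% of 27025 promoters. Besides these and Cyp3a16 and Cyp3a41b, the members were Cyp2a4, Cyp2a5, Cyp2c40, Cyp2c67, Cyp2c68, Cyp2c69 and Cyp2c70, so the motif occurred in members whose fold changes had either sign. The half-site AGGTCA occurred in 26.2% of members and 15.8% of promoters, and TATAAA in 54.8% and 14.3%. Many members are close relatives, such as Cyp3a41a, which shares 91.1% of its 75-base transcript stretches with Cyp3a41b. The shares of members therefore do not rest on separate promoters and are not directly comparable with those over all promoters. Hnf4a gave a log2 fold change of 0.06 (adjusted p = 0.895).

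**Figure D3:**
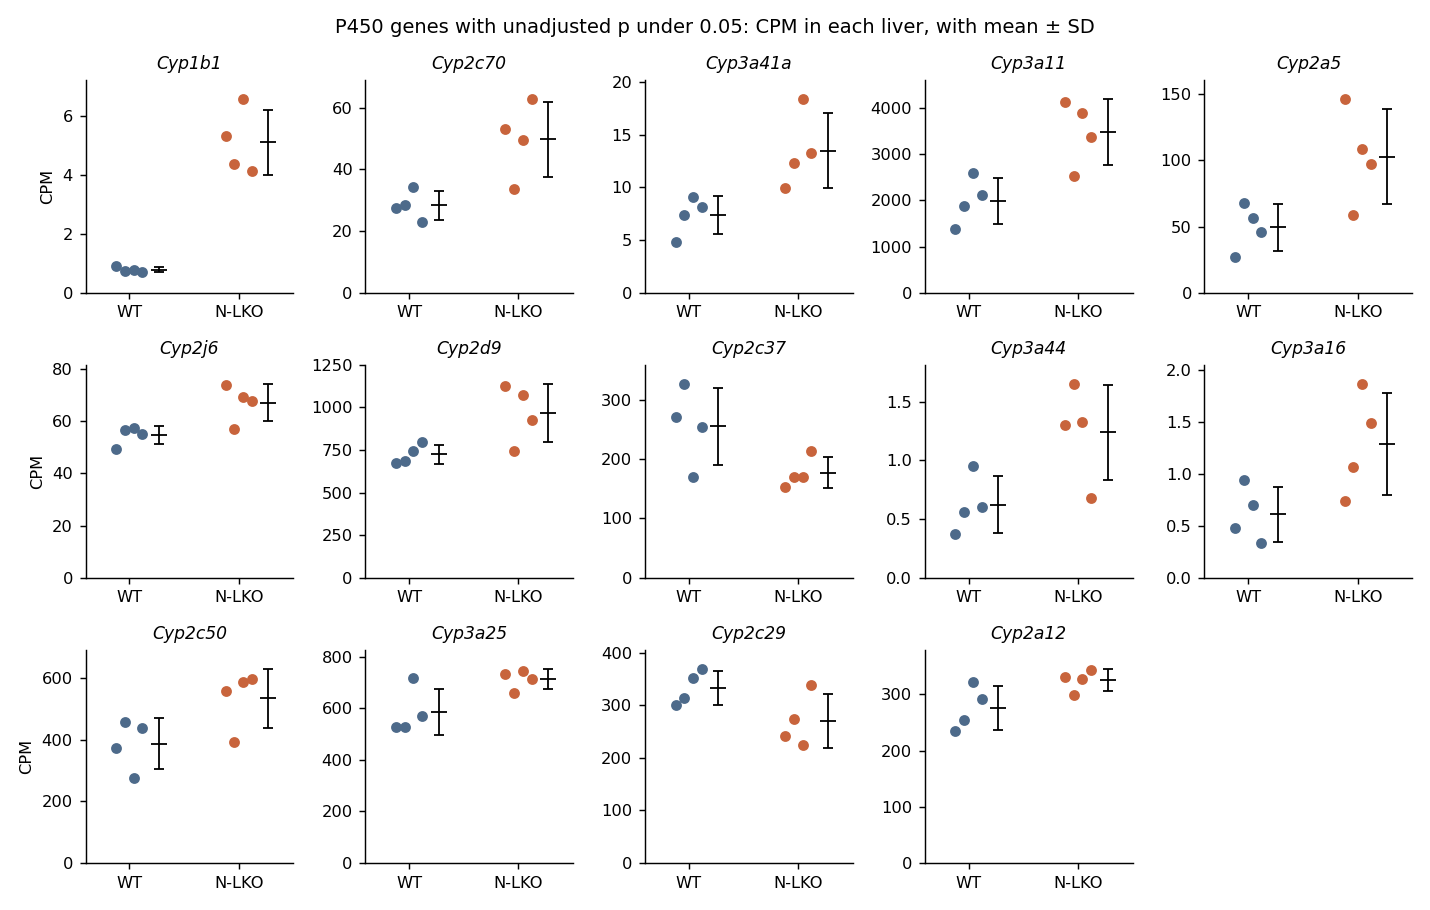
CPM in each liver (points; blue WT, orange N-LKO) with mean and SD (black) for the 14 P450 genes with an unadjusted p under 0.05, each on its own linear axis from 0. The genotypes are apart for Cyp1b1 and Cyp3a41a and overlap in at least 1 liver for the others.

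The Cyp2c subfamily, whose enzymes hydroxylate arachidonic acid, drugs and bile acids, split by sign along chromosome 19. From Cyp2c29 (start 39269405) to Cyp2c37 (start 39992424) all 8 genes had a negative log2 fold change, from -0.91 to -0.21. The next 3, Cyp2c54, Cyp2c50 and Cyp2c70 (end 40187334), had positive ones, from 0.21 to 0.82. None of the 11 was called, 2 of each sign had an unadjusted p under 0.05, and several share reads, so their signs are not separate observations. The stretch was picked after the values had been seen and is given as a description. Outside it, Cyp2c55 and Cyp2c23 gave 0.22 and -0.13.

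Cyp2c70, which makes muricholic acid in the mouse, stood at 27.4, 28.3, 34.4 and 23.0 CPM in WT and at 53.0, 33.5, 49.6 and 62.8 CPM in N-LKO. N-LKO 2 lay just under the highest WT liver and the others lay above all WT livers. The log2 fold change was 0.82 (SE 0.178, adjusted p = 0.0627), and no 75-base stretch of the gene is shared. Without N-LKO 2, the edgeR test called Cyp2c70 (0.97, adjusted p = 0.0093) and Cyp2d9 (0.52, adjusted p = 0.0455) besides Cyp1b1.

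Cyp2c37, an arachidonic acid hydroxylase, stood at 272, 326, 170 and 254 CPM in WT and at 153, 170, 170 and 214 CPM in N-LKO (log2 fold change -0.53, SE 0.175, adjusted p = 0.22). Only WT 3 lay as low as the N-LKO livers. Its near neighbour and close relative Cyp2c50, the highest Cyp2c gene, stood at 375, 458, 275 and 439 CPM in WT and at 559, 394, 587 and 596 CPM in N-LKO (0.47, SE 0.172, adjusted p = 0.278). Within each liver the ratio of Cyp2c50 to Cyp2c37, in CPM, was 1.38, 1.40, 1.62 and 1.73 in WT and 3.66, 2.31, 3.44 and 2.78 in N-LKO. The ratio did not overlap between genotypes, but the pair was chosen for this, so no test is given. Of their 75-base stretches, 13.8% for Cyp2c37 and 10.4% for Cyp2c50 occur in other genes, mostly in each other and Cyp2c54. The sum of Cyp2c37, Cyp2c50 and Cyp2c54 overlapped, at 568 to 993 CPM in WT and 740 to 1044 CPM in N-LKO.

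The promoters of this pair are shown because neighbours so alike gave fold changes of opposite sign. Each holds the 250 bases before the RefSeq start on the plus strand of chromosome 19 (GRCm38.p6, chr19:39992174-39992423 and chr19:40089429-40089678), and capitals mark bases that differ from, or have no partner in, the other sequence in their alignment, of which 84.3% of positions were equal.
Cyp2c37: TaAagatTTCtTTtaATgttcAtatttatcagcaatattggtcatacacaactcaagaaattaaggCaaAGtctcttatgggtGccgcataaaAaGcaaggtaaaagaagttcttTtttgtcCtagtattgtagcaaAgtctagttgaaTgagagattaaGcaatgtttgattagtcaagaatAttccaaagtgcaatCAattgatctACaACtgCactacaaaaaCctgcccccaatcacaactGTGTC
Cyp2c50: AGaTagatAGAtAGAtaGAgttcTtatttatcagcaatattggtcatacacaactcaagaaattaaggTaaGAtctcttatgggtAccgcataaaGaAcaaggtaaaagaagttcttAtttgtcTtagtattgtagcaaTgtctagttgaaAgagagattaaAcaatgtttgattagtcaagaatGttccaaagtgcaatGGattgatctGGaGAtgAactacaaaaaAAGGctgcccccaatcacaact
Neither held any of the motifs searched above.

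**Figure D4:**
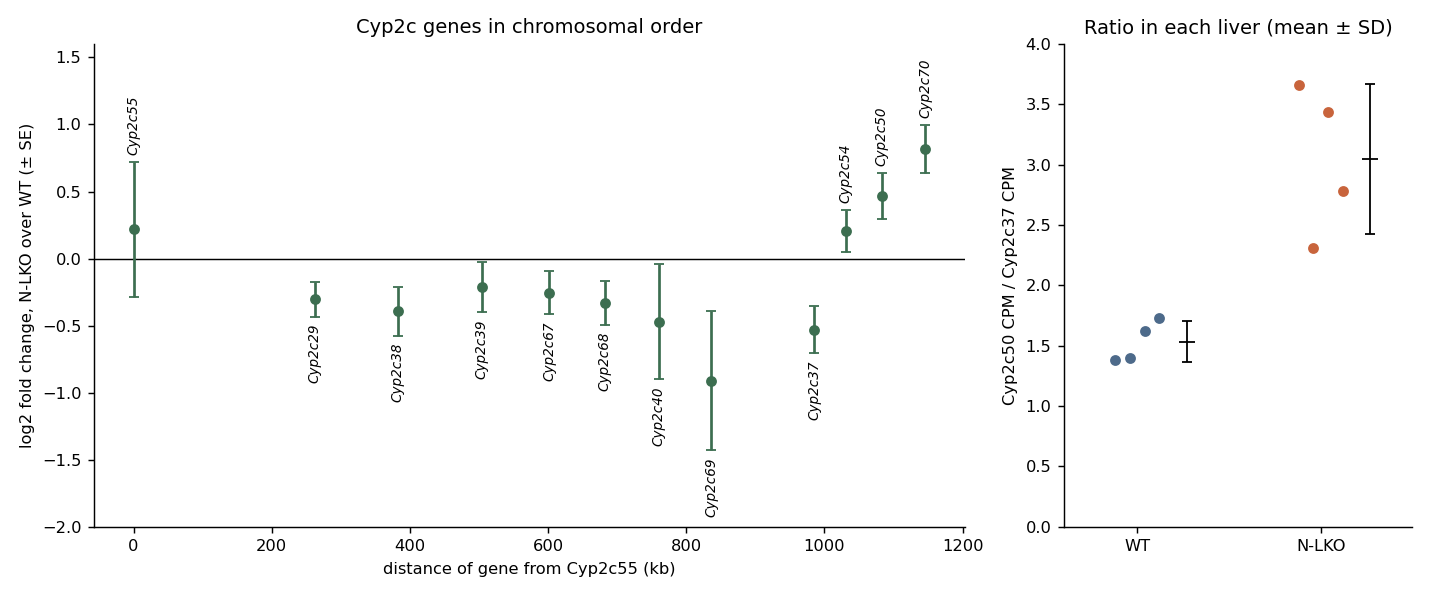
Left, log2 fold change of N-LKO over WT with SE for 12 Cyp2c genes by the distance of their start from that of Cyp2c55 in kb; Cyp2c23, far away, is left out. Right, the ratio of Cyp2c50 to Cyp2c37 CPM in each liver with mean and SD, from 1.38 to 1.73 in WT and from 2.31 to 3.66 in N-LKO.

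Cyp2c29, a CAR target, stood at 300.0, 314, 351 and 369 CPM in WT and at 241, 275, 224 and 340 CPM in N-LKO (log2 fold change -0.30, SE 0.128, adjusted p = 0.355). N-LKO 4 alone lay within the WT range. Cyp2c40, Cyp2c67, Cyp2c68 and Cyp2c69, of which 28.5% to 45.9% of 75-base stretches are shared, summed to 392 to 500.4 CPM in WT and 258 to 488 CPM in N-LKO. Over the whole subfamily the opposite signs left the sum at 1662 to 2043 CPM in WT and 1571 to 2171 CPM in N-LKO, a ratio of means of 0.966.

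In the Cyp2a subfamily, Cyp2a5, the coumarin hydroxylase, stood at 26.6, 68.0, 56.7 and 46.2 CPM in WT and at 146, 58.9, 109 and 97.6 CPM in N-LKO. N-LKO 2 again lay within the WT range. The log2 fold change was 1.06 (SE 0.296, adjusted p = 0.152), with 22.3% of 75-base stretches shared, mainly with Cyp2a4, and the sum of the pair ran from 27.7 to 71.0 CPM in WT and from 62.4 to 148 CPM in N-LKO. Cyp2a12, a steroid hydroxylase and the highest of the subfamily in CPM, stood at 235, 254, 322 and 291 CPM against 331, 299, 328 and 344 CPM (0.24, SE 0.104, adjusted p = 0.369). Cyp2a4 and Cyp2a22 gave log2 fold changes of 0.19 and -0.05.

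Cyp2d9, a testosterone hydroxylase known as male-specific, stood at 672, 687, 746 and 796 CPM in WT and at 1124, 743, 1071 and 925 CPM in N-LKO (log2 fold change 0.41, SE 0.129, adjusted p = 0.192). N-LKO 2 lay among the WT livers and the others above them. Pseudogenes and a microRNA gene overlap it, and 12.9% of its 75-base stretches are shared. The other 6 tested Cyp2d genes lay between -0.10 and 0.10.

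Cyp2j6, a fatty acid epoxygenase, stood at 49.5, 56.7, 57.4 and 55.2 CPM in WT and at 74.1, 57.2, 69.3 and 67.8 CPM in N-LKO (log2 fold change 0.29, SE 0.0898, adjusted p = 0.182). N-LKO 2 lay a little below WT 3 and above the rest. Cyp2j5, the main hepatic and renal member, stood at 389, 375, 478 and 469 CPM against 339, 377, 325 and 455 CPM (-0.19, adjusted p = 0.565), with the genotypes overlapping. The third tested member, Cyp2j9, gave 0.12.

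Cyp2e1, the ethanol-oxidising enzyme of the pericentral zone, was the most abundant member per length of transcript, at a mean of 3471 CPM per kb of exon. It stood at 6692, 7754, 6416 and 8014 CPM in WT and at 9574, 5999, 7591 and 7892 CPM in N-LKO. The N-LKO livers held both the highest and the lowest value. The log2 fold change was 0.11 (SE 0.153, adjusted p = 0.834), with an interval of 2 SE on either side from -0.20 to 0.41. Cyp2e1 made up 42.7% to 50.4% of all counts of the 49 members in WT and 42.2% to 47.7% in N-LKO. The 49 members together took 1.38% to 1.66% of all counts in WT and 1.43% to 1.91% in N-LKO.

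After Cyp2e1, the order by CPM per kb was Cyp3a11 (538), Cyp2d9 (318), Cyp3a25 (312), Cyp2d10 (229), Cyp2f2 (220), Cyp2d26 (196), Cyp2j5 (171), Cyp2c50 (158) and Cyp2c37 (119). Cyp2e1 stood apart, with no liver under 2780 CPM per kb and no liver over 812 for Cyp3a11. Over the 8 livers, the ranges of each other neighbouring pair in this order overlapped. Cyp1b1 was 38th of the 42 genes, at 0.504 CPM per kb.

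Of single-gene subfamilies, Cyp2f2, the periportal naphthalene oxidase, stood at 335, 386, 535 and 459 CPM in WT and at 428, 360, 506 and 556 CPM in N-LKO (log2 fold change 0.11, adjusted p = 0.84). Cyp2r1, the vitamin D 25-hydroxylase, stood at 4.97, 4.00, 6.66 and 5.96 CPM against 6.63, 6.86, 5.37 and 6.38 CPM (0.23, adjusted p = 0.623). Cyp2u1, a fatty acid hydroxylase, stood at 15.3, 20.5, 34.6 and 17.8 CPM against 22.3, 18.4, 19.0 and 12.8 CPM (-0.27, adjusted p = 0.7). The genotypes of these 3 overlapped.

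The Cyp2b genes are known as the classic targets of CAR. Cyp2b10 varied more between mice of one genotype than any other of the 42 reported genes. It stood at 3.37, 8.19, 0.444 and 0.331 CPM in WT and at 3.57, 0.330, 0.0664 and 0.679 CPM in N-LKO. These values gave a 24.7-fold range in WT and a 53.8-fold range in N-LKO. The low ends rested on few counts, with 63, 131, 7 and 6 counts in WT and 63, 5, 1 and 10 in N-LKO, so both ranges are imprecise. With this spread the log2 fold change of -1.33 had an SE of 1.01 (adjusted p = 0.642), and it was -0.22 without WT 2 and -3.08 without N-LKO 1. Cyp2b9, not tested, stood at 0.427, 2.19, 0.127 and 1.16 CPM against 0.284, 0.726, 0.133 and 0.204 CPM. Mice high in one were not always high in the other.

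**Figure D5:**
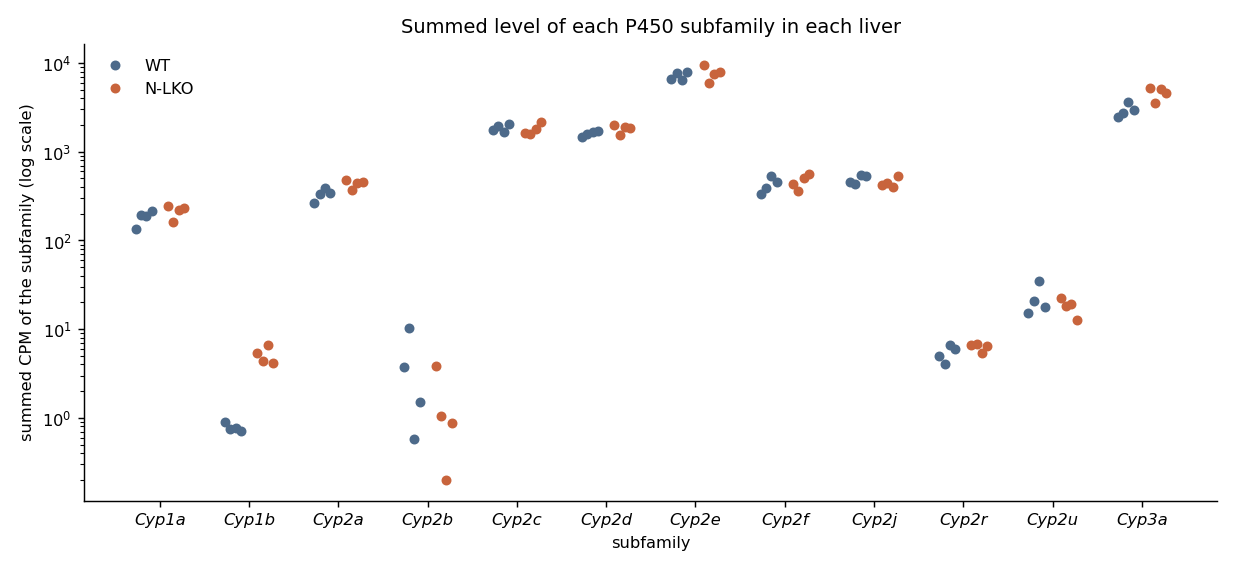
Summed CPM of each P450 subfamily in each liver (points; blue WT, orange N-LKO) on a log axis, for the 12 subfamilies with a mean sum of at least 0.5 CPM. The genotypes are apart for Cyp1b alone, while Cyp3a overlaps in 1 liver of each genotype.

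Grouped by what the genes are known for, no group but the AHR targets held a call. Of 9 tested CAR and PXR target P450s, 4 with an unadjusted p under 0.05 were higher in N-LKO and 2 were lower. Their sum, in which Cyp3a11 was the highest gene, ran from 3379 to 4398 CPM in WT and from 4405 to 6330 CPM in N-LKO. These sums narrowly did not overlap, but each of the 9 genes alone, Cyp3a11 included, overlapped between genotypes. Over all tested genes, 4.20% did not overlap and were higher in N-LKO, and 3.32% were lower. Of the 9, 6 had a positive log2 fold change and 3 a negative one, from -1.33 to 1.06. The sum of the 2 male-biased P450s, Cyp2d9 and Cyp2u1, overlapped, at 687 to 813 CPM in WT and 762 to 1147 CPM in N-LKO. Of 8 tested female-biased P450s, 4 had a positive log2 fold change and 4 a negative one. The 3 with an unadjusted p under 0.05 were the Cyp3a genes above, and the summed level ran from 48.5 to 60.2 CPM in WT and from 29.0 to 60.6 CPM in N-LKO. Of 7 pericentral P450s, 3 with an unadjusted p under 0.05 were higher in N-LKO (Cyp2a5, Cyp3a11, Cyp2c50) and 2 were lower (Cyp2c37, Cyp2c29). Beside them, of 8 pericentral markers that are not P450s, the ammonium transporter Rhbg rose, from 0.908 to 2.16 CPM in WT to 3.04 to 7.14 CPM in N-LKO (1.66, adjusted p = 0.0429). Glul, glutamine synthetase, stood at 692 to 835 CPM against 896 to 1315 CPM (0.47, adjusted p = 0.124). The other 6 gave log2 fold changes from -0.54 (Lgr5) to 0.33 (Slc1a2), Tbx3 (-0.27) and Oat (-0.14) among them, and the summed list overlapped, at 2024 to 2644 CPM in WT and 2111 to 2868 CPM in N-LKO. The part of zonation in the P450 differences was not tested.

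The machinery around the P450s gave few calls. None of 12 tested genes of heme synthesis and breakdown was called, and Alas1, the rate-limiting enzyme, stood at 155 to 274 CPM in WT and 122 to 255 CPM in N-LKO (log2 fold change -0.09, adjusted p = 0.914). None of 8 electron donors and partners was called, and Por stood at 241 to 373 CPM against 299 to 357 CPM (0.20, adjusted p = 0.603). None of 21 tested xenobiotic receptors and liver factors and none of 9 regulators of the growth hormone axis was called. At an unadjusted p under 0.05, 2 heme genes (16.7%) and 2 receptors or factors (9.52%) were lower in N-LKO. The share over all tested genes, in either direction, was 12.8%. The log2 fold changes were -0.297 for Uros, -0.315 for Ppox, -1.72 for Nr0b2 and -1.02 for Dbp. Nothing in these lists was higher at that limit. Of 11 CAR and PXR targets outside the P450s, 1 was called (2 with DESeq2, which added Aldh1a1, a retinal dehydrogenase), the long noncoding RNA Meg3, which stood at 0.695, 1.19, 1.08 and 0.993 CPM in WT and at 8.11, 6.01, 4.05 and 7.13 CPM in N-LKO (2.68, SE 0.256, adjusted p = 0.000724). The other 10 had log2 fold changes between -0.76 and 0.58, with 2 of them higher and 1 lower at an unadjusted p under 0.05. Of 23 tested P450 genes of families 4 and above, none was called, and 9 (39.1%) had an unadjusted p under 0.05, against 12.8% of all tested genes. Of these 9, 7 were higher in N-LKO and 2 lower, where the shares over all tested genes were 6.87% and 5.90%. The genotypes did not overlap for 1 gene higher in N-LKO and 2 lower, against 4.20% and 3.32% of all tested genes. Log2 fold changes ran from -1.43 to 1.44, and Cyp7b1, the oxysterol hydroxylase, had the highest. Cyp7b1 stood at 29.5 to 77.5 CPM in WT and at 93.9 to 278 CPM in N-LKO (adjusted p = 0.0875).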

How the data were processed

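The authors deposited 1 table of expected counts per gene for 8 livers, not normalised; values were rounded to whole counts. The submitters' processing notes name STAR, Partek and the build mm9, and the study's methods name TopHat2, but the coordinates in the table match GENCODE M21 (GRCm38) for 19000 of 19193 shared symbols, with start and end within 1 base. Whether counting used strand is not given in the sources used here. Genes were filtered with filterByExpr and tested with edgeR 4.0.16 (TMM scaling, quasi-likelihood test; R 4.3.3), with Benjamini-Hochberg adjustment over 14214 genes; p-values are two-sided and adjusted p-values are from this test on all 8 livers unless DESeq2, a replicate block or a left-out liver is named, where fits without a liver were adjusted over 14410 to 14505 genes. CPM are rounded counts over effective library size, and SE is the log2 fold change over the root of F. Total counts were 15430519 to 18412201 in WT and 14688404 to 18585412 in N-LKO; low counts limit the precision of the scarcest genes. Shared sequence was measured as the share of a gene's 75-base transcript stretches found in other genes. The study's methods name both 45 cycles and a read length of 75 bases. With 45-base stretches more was shared, at 34.2% for Cyp2c37, 31.4% for Cyp3a25 and 8.6% for Cyp3a11. For Cyp1b1 and Cyp2c70 it stayed at 0. On simulated counts, edgeR recovered 97% of genes changed by 2 on the log2 scale and 92% of those changed by 1.5, with 11 false calls. No smaller change was simulated, so recovery of changes as small as those of the members other than Cyp1b1 is not known. Groups came from the genotype label. The members and lists were chosen with earlier results of these data known. Values per liver are given for members called, with an unadjusted p under 0.05, with non-overlapping genotypes, or highest in their subfamily. Of genes outside the families, Nus1, Ahr, Nr1i2, Nr1i3, Hnf4a, Por, Alas1 and called genes of the lists were named by rule. The cell markers, Glul, Aldh1a1, Cyp7b1, Uros, Ppox, Nr0b2 and Dbp were named after their values were seen. Alternatives were other scaling, filters, DESeq2 1.42.0, limma-voom 3.58.1, replicate blocks and leaving out each liver. The labels name a small RNA library kit, although the table holds messenger RNAs.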

Additional observations from a re-analysis of the deposited data

Results flagged for a closer look

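A single liver lay far from the other three of its genotype, by Dixon's criterion for 4 values, in 2 of 72 groups of CPM values examined, where chance alone gives about 3.6. Nus1 was low in WT 1, at 82.0 CPM against 89.7 to 90.5 CPM in the other WT livers. Ahr was high in N-LKO 4, at 116 CPM against 53.1 to 61.6 CPM in the other N-LKO livers.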

How the results depend on the processing

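Cyp1b1 was called in all 16 alternatives, with a log2 fold change from 2.54 to 2.77. The edgeR count of 1 member called became 4 with DESeq2, 2 with a replicate block (Cyp3a41a added, adjusted p = 0.0158) and 2 with the library-name number as a replicate block (Cyp2c70 added, adjusted p = 0.0209), and ran from 1 to 3 when each liver was left out, the 3 without N-LKO replicate 2. Whether the replicate numbers pair mice is not given in the sources used here. Deviations of same-numbered livers correlated at 0.0625, -0.0853, 0.0396 and 0.0433 by title and at -0.0092, 0.166, 0.0648 and 0.0767 by library name. Without a reference for livers known to be unpaired, these correlations cannot decide it. The number of genes called over the whole table was 148 with edgeR, 394 with DESeq2, 98 with at least 10 counts in every mouse, and 71 to 173 with a liver left out. No member was called lower in any alternative. The CAR and PXR targets outside the P450s went from 1 called to 2 with DESeq2. Cyp2b10, not called, ran from -3.078 without N-LKO replicate 1 to -0.22 without WT replicate 2. Of 461 recomputed log2 fold changes of named genes, 6 changed sign, all of genes not called and all on leaving out 1 liver: Cyp2e1 ran from -0.012 to 0.214, Cyp2u1 from -0.415 to 0.026, Ahr from -0.18 to 0.266, Hnf4a from -0.047 to 0.111 and Alas1 from -0.232 to 0.086. Why these values moved was not tested. A limit of 1 CPM in place of 0.5 left 37 members. Cyp1b1 rests on 12 to 17 counts in a WT liver, which limits the precision of its fold change.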
